A study of Mus musculus with 7 samples.

Results

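The genes described here are 8 members of the Sox family of transcription factors: the SoxC genes Sox4, Sox11 and Sox12, the SoxD genes Sox5, Sox6 and Sox13, and the SoxE genes Sox8 and Sox9. They were chosen by gene symbol and were 8 of the 22357 genes kept from the deposited tables. Transcripts were sequenced from cultured fetal kidneys of C57BL/6 mice, with 3 libraries that were beta-catenin activated and E2-2 deleted and 4 that were beta-catenin activated and E2-2 wildtype. Activation of beta-catenin, through which canonical Wnt signals act on genes, was thus shared by all 7 libraries, and so were dissection and a tamoxifen injection of the mother (2 mg per 40 g of body weight) at 10.5 days post coitum and a culture of 3 to 4 days. E2-2 is a basic helix-loop-helix factor of the E protein class, encoded by Tcf4. The labels name neither the Cre driver nor the cells in which it acts, and nothing in them ties a library to its own embryo or culture. The p-values therefore speak only of the spread among these 7 libraries, and that spread may be technical.

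Sox proteins bind DNA through a high mobility group (HMG) box, and members of one letter group share further domains. SoxC proteins are activators found in many embryonic progenitors and in maturing neurons. SoxD proteins pair through a coiled coil, lack a known activation or repression domain, and work beside other factors, as Sox5 and Sox6 do beside Sox9 in cartilage; Sox13 binds a TCF factor and dampens Wnt signalling in mouse T cells. SoxE proteins are strong activators, and in the mouse kidney Sox8 and Sox9 act in the tips of the ureteric bud downstream of the receptor Ret. Loss of Sox11 in the mouse gives duplicated kidneys. In mouse cartilage Sox9 and beta-catenin oppose each other.

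To show sequence around annotated starts of genes at both ends of the range in 1 library, promoter windows are given from RefSeq on GRCm38.p6 for the 3 SoxC genes, all lowest in deleted replicate 2, and for Sox6, highest there. Each runs 5′ to 3′ on the minus strand, from 250 bases before to 50 after an annotated start, and 7 of the 8 genes had at least 1 such window, Sox9 having none in the table. Capitals mark matches to the E-box CANNTG, the class of site that E proteins bind, and to the TCF/LEF motif ATCAAAG on either strand, the class of site through which beta-catenin acts.

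Sox4, chr13:28953650-28953949: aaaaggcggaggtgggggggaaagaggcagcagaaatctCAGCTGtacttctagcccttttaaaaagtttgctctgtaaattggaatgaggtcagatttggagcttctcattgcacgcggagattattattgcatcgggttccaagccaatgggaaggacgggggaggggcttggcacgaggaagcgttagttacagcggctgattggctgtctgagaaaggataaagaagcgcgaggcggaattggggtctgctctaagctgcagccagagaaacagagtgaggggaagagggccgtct
Sox11, chr12:27342669-27342968: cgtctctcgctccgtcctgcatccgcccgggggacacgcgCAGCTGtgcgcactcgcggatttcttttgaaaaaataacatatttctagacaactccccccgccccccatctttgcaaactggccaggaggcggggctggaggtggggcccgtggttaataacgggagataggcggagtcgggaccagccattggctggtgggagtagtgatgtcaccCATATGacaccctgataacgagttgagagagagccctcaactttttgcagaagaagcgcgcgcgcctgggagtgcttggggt
Sox12, chr2:152397997-152398296: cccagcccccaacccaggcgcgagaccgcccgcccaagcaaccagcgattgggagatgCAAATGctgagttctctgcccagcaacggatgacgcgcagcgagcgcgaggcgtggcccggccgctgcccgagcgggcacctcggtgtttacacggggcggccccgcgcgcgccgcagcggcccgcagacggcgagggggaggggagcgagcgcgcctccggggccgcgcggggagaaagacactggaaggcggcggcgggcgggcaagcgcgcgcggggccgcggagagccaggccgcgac
Sox6 window 1, chr7:116038695-116038994: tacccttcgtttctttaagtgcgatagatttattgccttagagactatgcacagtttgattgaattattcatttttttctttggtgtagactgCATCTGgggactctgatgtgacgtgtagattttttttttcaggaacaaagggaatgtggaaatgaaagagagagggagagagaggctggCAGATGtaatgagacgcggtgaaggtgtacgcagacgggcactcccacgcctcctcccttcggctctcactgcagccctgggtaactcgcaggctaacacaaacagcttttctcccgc
Sox6 window 3, chr7:115995037-115995336: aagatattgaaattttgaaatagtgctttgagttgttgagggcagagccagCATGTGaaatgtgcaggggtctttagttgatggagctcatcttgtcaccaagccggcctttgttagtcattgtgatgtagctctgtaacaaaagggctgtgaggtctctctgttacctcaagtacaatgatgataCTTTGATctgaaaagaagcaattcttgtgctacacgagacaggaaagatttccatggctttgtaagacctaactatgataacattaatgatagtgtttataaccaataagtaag

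The Sox4 and Sox12 windows held 1 E-box each and the Sox11 window held 2, against 72.3% of all 32851 windows with at least 1. The single Sox5 and Sox13 windows held 0 and the Sox8 window held 1. All 6 windows of Sox6 held E-boxes, 1 to 4 each. The TCF/LEF motif was found in 1 of the 12 windows of these genes, the third of Sox6, 64 bases before the start, against 3.73% of all windows. The Sox motif AACAAT, searched on both strands, was found in 1 window, the fifth of Sox6, with 2 matches, against 10.7% of all windows. No 2 matches overlapped in these windows. These are letter matches only. The SoxC windows were at the start of their genes and had 52.0% (Sox4), 58.7% (Sox11) and 76.7% (Sox12) G or C, against a median of 52.7% over all windows. The printed windows of Sox6 lay 2032 and 45690 bases inside the annotated gene, and the Sox5 window 835181 bases inside.

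The inferred depth was about 14500000 to 26600000 fragments per library and 17600000 in deleted replicate 2, the library in which the Sox genes stood farthest from their means. That library stood apart across the transcriptome: it had the lowest value of the 7 libraries in 44.4% of the 13465 genes tested and the highest in 17.2%. Genes of kidney identity were present, with FPKM (fragments scaled for transcript length and library size) of 19.3 to 54.4 in deleted and 39.0 to 66.4 in wildtype libraries for Wt1 of the nephron lineage and of 4.85 to 9.73 in deleted and 2.00 to 11.7 in wildtype libraries for Ret. The nephron progenitor gene Six2 was at 62.8, 2.69 and 33.5 FPKM in deleted replicates 1 to 3 and at 29.0 to 74.8 in wildtype libraries. The targeted gene Tcf4 was at 33.5 to 42.0 FPKM in deleted and 28.7 to 58.1 in wildtype libraries; the deleted exons are not given in the labels, so a value for the whole gene does not check the genotype. Ctnnb1, which encodes beta-catenin, was at 512 to 636 FPKM in deleted and 408 to 511 FPKM in wildtype libraries, a difference of 0.33 (SE 0.18; limma adjusted p = 0.795). By limma on log2(FPKM + 1), 0% of the genes tested passed an adjusted p of 0.05. At an unadjusted p under 0.05, 3.29% were higher and 1.2% lower in deleted libraries. The deposited library names begin with BI (deleted replicates 1 and 2, wildtype 1 and 2) or BM (deleted replicate 3, wildtype 3 and 4), and what the prefix stands for is not given in the labels.

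None of the 8 Sox genes passed the test between genotypes, and the groups overlapped for every one of them. The SoxC genes were abundant, the SoxD genes Sox5 and Sox6 and the SoxE gene Sox8 were near or below the level at which genes were tested (a mean of 1 FPKM), and 7 of the 8 were tested, all but Sox8. By limma 0 of the 7 passed over all genes tested, and 0 reached an unadjusted p under 0.05, against 4.49% of all genes tested. The difference was positive for 2 (Sox5 and Sox6) and negative for 5, against 39.3% and 60.7% of all genes tested. Loci are given as deposited, in a build that is not named, and cannot be read against the promoter coordinates. Since FPKM is per length, the levels can be set side by side. Sox4 was the most abundant, at a mean of 58.1 FPKM over the 7 libraries, followed by Sox12 at 26.8, Sox11 at 21.0, Sox13 at 16.2, Sox9 at 7.96, Sox6 at 1.98, Sox5 at 1.92 and Sox8 at 0.673. This order held at every step in 5 of 7 libraries. Sox11 was above Sox13 in 6 of 7 libraries, the exception being deleted replicate 2, and Sox6 above Sox5 in 6 of 7, the exception being wildtype replicate 3. Sox6 and Sox5 did not differ beyond their spread.

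**Figure D1:**
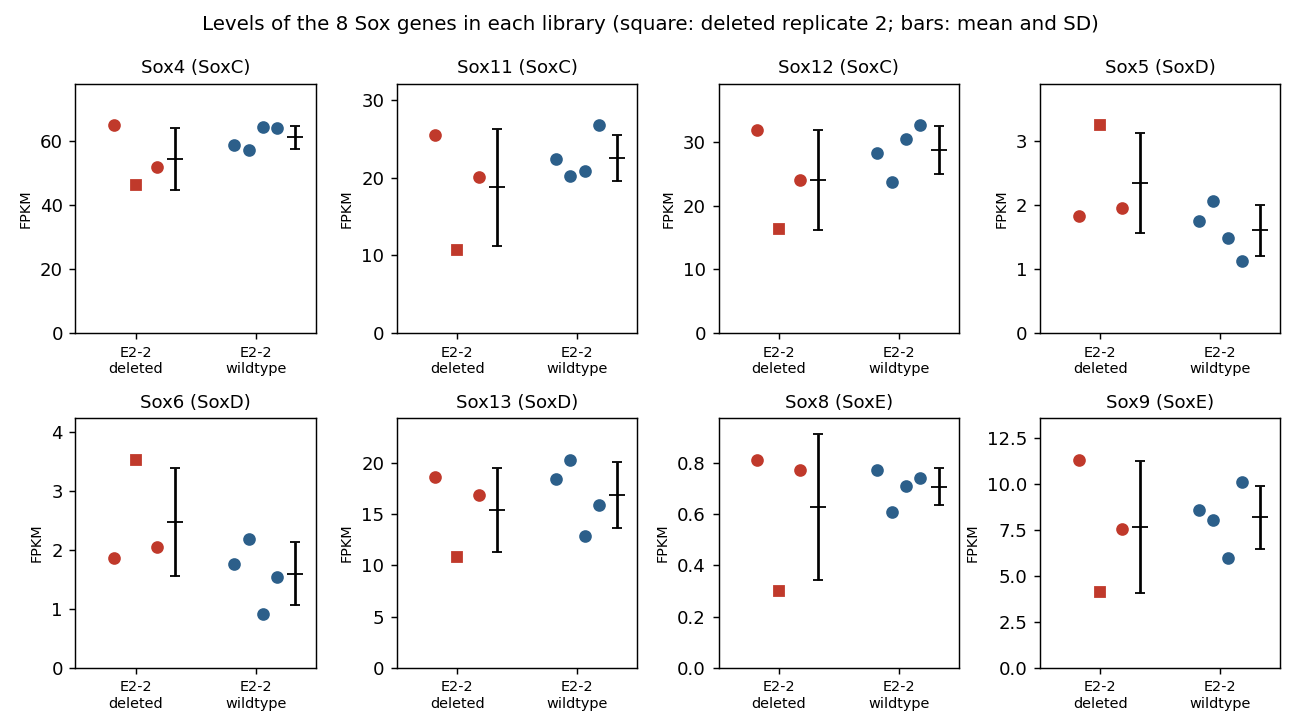
FPKM of the 8 genes (linear axes from 0) in each library, E2-2 deleted (red, n = 3) left of E2-2 wildtype (blue, n = 4), with the mean and SD as black bars. The square is deleted replicate 2, the lowest point for Sox4, Sox11, Sox12, Sox13, Sox8 and Sox9 and the highest for Sox5 and Sox6; the genotypes overlap in every panel.

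The SoxC genes were lower on average in deleted libraries by 0.18 to 0.32 on the log2 scale, within the spread between libraries, and their lowest values were all in deleted replicate 2. Sox4, an activator needed for survival of many progenitor cells (deposited locus chromosome 13, 29042598 to 29045551), was at 64.8, 46.1 and 51.8 FPKM in deleted replicates 1 to 3, against 58.7, 57.2, 64.2 and 64.0 in wildtype replicates 1 to 4. Deleted replicate 1 was the highest of all and the other two deleted libraries were below every wildtype library. The means were 54.2 ± 9.57 FPKM in deleted (SD, n = 3) and 61.0 ± 3.58 FPKM in wildtype libraries (SD, n = 4), a difference of -0.18 with an SE of 0.13 and a 95% confidence interval of -0.48 to 0.12. The limma adjusted p was 0.795 and the exact permutation p 0.257. In bulk tissue, fewer cells of a type and less RNA per cell cannot be told apart.

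Sox11, a close relative of Sox4 that acts with it in neurons and in the kidney (deposited locus chromosome 12, 28019132 to 28027583), was at 25.6, 10.7 and 20.1 FPKM in deleted replicates 1 to 3, against 22.4, 20.3, 20.9 and 26.8 in wildtype replicates 1 to 4. The means were 18.8 ± 7.54 FPKM in deleted and 22.6 ± 2.93 FPKM in wildtype libraries (SD, n = 3 and 4). The library at 10.7 was separated from the rest, which lay within 20.1 to 26.8. The difference was -0.32 (SE 0.26, interval -0.93 to 0.28; exact permutation p = 0.314; adjusted p by limma = 0.795), and it was 0.01 without deleted replicate 2. Sox12, the weakest activator of the group (deposited locus chromosome 2, 152219347 to 152223782), was at 32.0, 16.3 and 24.1 FPKM in deleted replicates 1 to 3, against 28.3, 23.7, 30.5 and 32.7 in wildtype replicates 1 to 4. The means were 24.1 ± 7.84 FPKM in deleted and 28.8 ± 3.83 FPKM in wildtype libraries (SD, n = 3 and 4). Its low library was again deleted replicate 2, with a difference of -0.29 (SE 0.22, interval -0.79 to 0.22; exact permutation p = 0.314; adjusted p by limma = 0.795) that was -0.04 without that library and -0.51 without deleted replicate 1. For Sox4 these values were -0.07 and -0.31.

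The balance between SoxC genes also differed in that library. The log2 ratio of Sox4 to Sox11 FPKM was 1.34, 2.10 and 1.36 in deleted replicates 1 to 3, against 1.25 to 1.62 in wildtype libraries. Sox11 was thus lower than Sox4 by more in deleted replicate 2 than in any other library. The summed SoxC level was 122, 73.2 and 96.0 FPKM in deleted replicates 1 to 3 and 101 to 123 FPKM in wildtype libraries.

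Sox5 and Sox6 had the opposite sign, with means 1.46 and 1.55 times as high in deleted as in wildtype libraries, also within the spread. Sox5 (deposited locus chromosome 6, 143776944 to 144158088) was at 1.82, 3.24 and 1.95 FPKM in deleted replicates 1 to 3, against 1.75, 2.06, 1.48 and 1.12 in wildtype replicates 1 to 4. Sox6, which in the mouse also silences embryonic globin and slow muscle fibre genes (deposited locus chromosome 7, 122614857 to 123182258), was at 1.86, 3.53 and 2.05 FPKM in deleted replicates 1 to 3, against 1.77, 2.18, 0.908 and 1.54 in wildtype replicates 1 to 4. Sox5 averaged 2.34 ± 0.783 FPKM in deleted and 1.60 ± 0.402 FPKM in wildtype libraries, and Sox6 2.48 ± 0.915 FPKM in deleted and 1.60 ± 0.534 FPKM in wildtype libraries (SD, n = 3 and 4). Deleted replicate 2 was the highest for both genes, and wildtype replicate 2 lay above the other two deleted libraries for both.

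The difference was 0.35 for Sox5 (SE 0.21, interval -0.15 to 0.84; exact permutation p = 0.171; adjusted p by limma = 0.795) and 0.42 for Sox6 (SE 0.24, interval -0.15 to 0.98; exact permutation p = 0.2; adjusted p by limma = 0.795). Without deleted replicate 2 the differences were 0.16 and 0.21, and that of Sox6 was 0.27 without wildtype replicate 3. Within the name prefixes they were 0.25 (BI) and 0.36 (BM) for Sox5 and 0.28 and 0.47 for Sox6. The numbers of fragments inferred behind these levels were 175 to 398 for Sox5 and 188 to 495 for Sox6. At these levels the added 1 FPKM shrinks a log2 difference: with 0.1 FPKM added, the differences were 0.50 and 0.61. Sox5 and Sox6 stayed close to each other in deleted libraries, where the log2 ratio of Sox5 to Sox6 was -0.13 to -0.04, against -0.46 to 0.71 in wildtype libraries.

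Sox13, the third SoxD gene (deposited locus chromosome 1, 135278876 to 135320789), did not follow Sox5 and Sox6. It was at 18.6, 10.8 and 16.9 FPKM in deleted replicates 1 to 3, against 18.4, 20.3, 12.9 and 15.9 in wildtype replicates 1 to 4, so that its lowest library was the one in which Sox5 and Sox6 were highest. The means were 15.4 ± 4.11 FPKM in deleted and 16.9 ± 3.20 FPKM in wildtype libraries (SD, n = 3 and 4). The difference was -0.14 (SE 0.21, interval -0.63 to 0.35; exact permutation p = 0.629; adjusted p by limma = 0.852). It had opposite signs within the prefixes, -0.42 in BI and 0.22 in BM, and was 0.08 without deleted replicate 2.

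Of the SoxE genes, Sox9, the master regulator of cartilage and a driver of testis formation (deposited locus chromosome 11, 112643523 to 112649071) had an SD of 0.43 in log2(FPKM + 1) over the 7 libraries, against a median of 0.22 over all genes tested. Its highest FPKM was 2.75 times its lowest, against 3.89 times for Sox6 and 2.90 times for Sox5. It was at 11.3, 4.11 and 7.54 FPKM in deleted replicates 1 to 3, against 8.60, 8.03, 5.97 and 10.1 in wildtype replicates 1 to 4. Both the highest and the lowest value were in deleted libraries, whose mean was 7.66 ± 3.60 FPKM, against 8.18 ± 1.72 FPKM in wildtype libraries (SD, n = 3 and 4). The difference was -0.16 (SE 0.30, interval -0.84 to 0.53; exact permutation p = 0.657; adjusted p by limma = 0.884). Its sign turned to 0.18 without deleted replicate 2, and it was -0.45 without deleted replicate 1.

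Sox8, which backs up Sox9 in the ureteric bud and testis (deposited locus chromosome 17, 25702837 to 25707631), was at 0.811, 0.300 and 0.772 FPKM in deleted replicates 1 to 3, against 0.772, 0.606, 0.709 and 0.739 in wildtype replicates 1 to 4. Apart from deleted replicate 2 these values lay close together. In that library the value rested on 15 inferred fragments, against 25 to 53 in the others. Its deposited interval of 0.145 to 0.455 FPKM overlapped that of 1 other library, wildtype replicate 2, at 0.364 to 0.849. Sox8 was not in the test across genes; its difference of -0.08 had an exact permutation p of 0.743 and was 0.07 without deleted replicate 2. The log2 ratio of Sox9 to Sox8 FPKM was 3.29 to 3.80 in deleted libraries, against 3.07 to 3.78 in wildtype libraries.

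**Figure D2:**
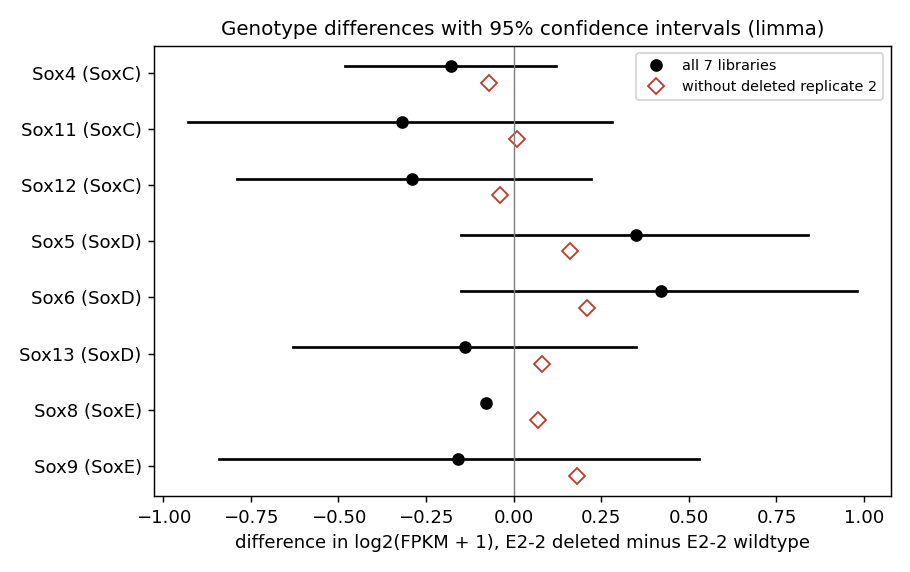
Difference in log2(FPKM + 1), E2-2 deleted minus E2-2 wildtype, for each gene. Black dots and lines are the value and its 95% confidence interval over all 7 libraries (limma; Sox8, not tested, has no line) and open diamonds the value without deleted replicate 2; all 7 intervals include 0, and the diamonds lie between -0.07 and 0.21.

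Deleted replicate 2 was the lowest library for 6 of the 8 genes (Sox4, Sox11, Sox12, Sox13, Sox8 and Sox9) and the highest for the other two. Over all genes tested, the same library was lowest in 44.4% and highest in 17.2%. Relative to its own mean over the 7 libraries, Sox11 stood at -0.86 there, Sox9 at -0.76, Sox12 at -0.65 and Sox13 at -0.53 on the log2 scale, and Sox6 at 0.65 and Sox5 at 0.57. In the other 6 libraries no gene was farther from its mean than 0.60, the distance of Sox6 below its mean in wildtype replicate 3. Together Sox5 and Sox6 made 3.01%, 9.26% and 4.17% of the SoxC FPKM in deleted replicates 1 to 3, against 2.07% to 4.20% in wildtype libraries.

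**Figure D3:**
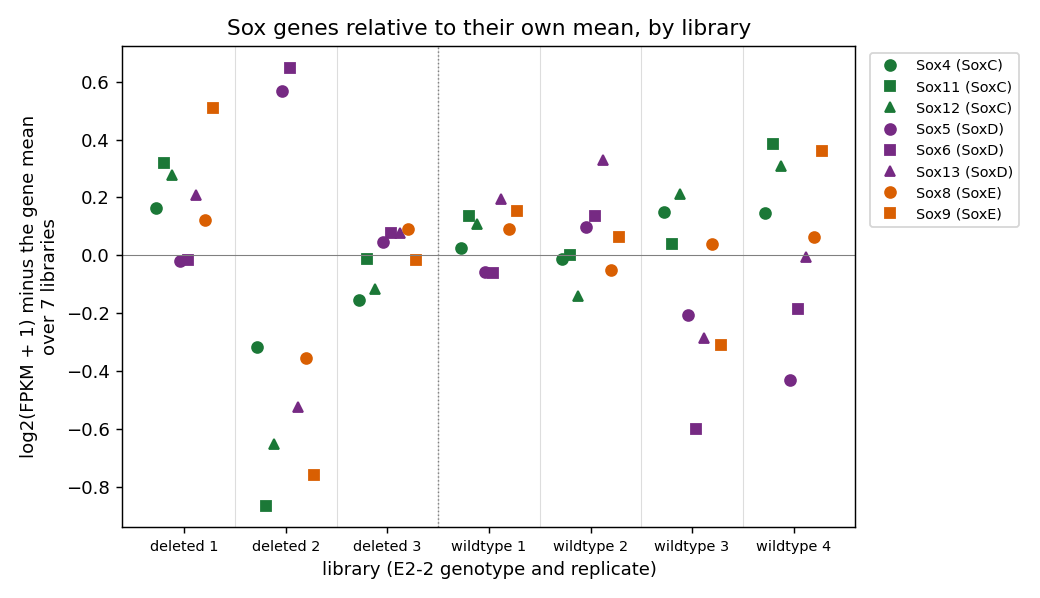
log2(FPKM + 1) of each gene minus its own mean over the 7 libraries, by library, E2-2 deleted left of E2-2 wildtype; colours mark SoxC, SoxD and SoxE, and points within a library are spread sideways for sight. In deleted replicate 2, Sox5 and Sox6 lie at 0.57 and 0.65 and the other 6 genes between -0.86 and -0.32.

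Kidney marker lists differed in how they stood in the same library. The nephron progenitor list (14 genes) summed to 501, 206 and 394 FPKM in deleted replicates 1 to 3, against 305 to 560 in wildtype libraries, and 9 of its 14 members had their lowest value in deleted replicate 2, against 44.4% of all genes tested. Its median difference was -0.35, against -0.05 over all genes tested, with 0 of 14 past the threshold in either direction; the median was -0.00 without deleted replicate 2 and -0.64 without deleted replicate 1. The ureteric tip and Ret list (11 genes, all tested) summed to 288, 153 and 269 FPKM in deleted replicates 1 to 3, against 226 to 320 in wildtype libraries, with 6 of 11 lowest in deleted replicate 2, a share near that of all genes. The early nephron list had its highest sum there, at 246 FPKM, against 197 and 201 in the other deleted and 178 to 207 in wildtype libraries. Wnt4 alone was at 100 FPKM there. Of the 9 early nephron genes tested, 5 had their lowest value in deleted replicate 2 and 2 their highest. Renal stroma summed to 1040 FPKM in that library, against 899 and 1070 in the other deleted and 756 to 1120 in wildtype libraries. Dcn alone made 606 FPKM of that sum. Of the 10 stroma genes, 5 had their lowest value in deleted replicate 2, among them Foxd1 at 2.30 FPKM, and 2 their highest. The part of these cell populations in the Sox levels was not tested.

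Sox8 and Sox9 work downstream of Ret in the ureteric tips, so the genes of that pathway are given beside them. Of the 11, 4 had a positive and 7 a negative difference, 0 passed the threshold in either direction, and the median was -0.14, or 0.13 without deleted replicate 2. Etv4, a transcription factor induced by Ret, was at 33.3, 5.44 and 22.9 FPKM in deleted replicates 1 to 3, against 17.3 to 40.7 in wildtype libraries. Spry1, an antagonist of receptor signalling, was at 28.8 to 43.5 FPKM in deleted and 38.7 to 46.9 in wildtype libraries. The chemokine receptor gene Cxcr4 was at 23.9 to 65.0 in deleted and 51.4 to 94.4 in wildtype libraries. The co-receptor gene Gfra1 was at 28.8 to 37.3 in deleted and 12.2 to 36.2 in wildtype libraries, so the groups overlapped for each of these genes. Wildtype replicate 3, which had the lowest Sox9 level of the wildtype libraries, also had the lowest level of the 7 libraries for Ret (2.00 FPKM) and for the epithelial cadherin gene Cdh1 (8.30 FPKM, against 23.5 to 36.6 in deleted and 26.9 to 36.0 in the other wildtype libraries). That library was lowest in 21.4% of all genes tested. Sox8 was at 0.709 FPKM in it, against 0.606 to 0.772 in the other wildtype libraries. In deleted replicate 2, where Sox9 was lowest of the 7 libraries at 4.11 FPKM, Ret was at 4.85 and Cdh1 at 23.5 FPKM. The ureteric bud epithelium list summed to 141 FPKM in wildtype replicate 3, against 230 to 439 in deleted and 383 to 477 in the other wildtype libraries. Its 12 members had a median difference of -0.10, 5 positive and 7 negative, with 0 past the threshold. That median was 0.19, 0.08 and 0.11 without deleted replicate 2, wildtype replicate 2 and wildtype replicate 4.

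Cartilage genes that Sox9, Sox5 and Sox6 are known to control had differences in both directions. Of 20 such genes, 13 were tested, the median was 0.11, and 0 passed the threshold in either direction. The difference was positive for 8 and negative for 5, against 39.3% and 60.7% of all genes tested. At an unadjusted limma p under 0.05, 3 were higher and 0 lower in deleted libraries, against 3.29% and 1.2% of all genes tested. With no filter on low values, over all 20, the median was -0.05. The list summed to 121 to 178 FPKM in deleted and 103 to 129 FPKM in wildtype libraries, and the 7 genes not tested were Acan, Epyc, Matn1, Matn3, Comp, Ucma and Nkx3-2. Groups did not overlap for Hapln1 and Chst11, both higher in deleted libraries; 2.84% of all genes tested had no overlap in that direction and 2.05% in the other. Hapln1, a link protein of cartilage matrix, was at 4.88, 4.08 and 5.37 FPKM in deleted replicates 1 to 3, against 3.18, 2.47, 2.48 and 1.83 in wildtype replicates 1 to 4, a difference of 0.73 (SE 0.17; limma adjusted p = 0.795). Chst11, a chondroitin sulfotransferase, was at 14.2, 24.1 and 15.5 FPKM in deleted replicates 1 to 3, against 12.6, 10.7, 9.96 and 11.7 in wildtype replicates 1 to 4, a difference of 0.60 (SE 0.18; limma adjusted p = 0.795) that was 0.38 without deleted replicate 2. The matrilin gene Matn4 and the collagen gene Col11a1 each differed by 0.88 (SE 0.35 and 0.42), with their highest values, 4.18 and 65.0 FPKM, in deleted replicate 2; without it the differences were 0.47 and 0.43.

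Col2a1 and Acan, both bound and activated by Sox9 in cartilage, had negative differences; they are named here after their values were seen. Col2a1, the main cartilage collagen, was at 17.8, 1.60 and 10.7 FPKM in deleted replicates 1 to 3, against 22.5, 4.89, 21.7 and 22.9 in wildtype replicates 1 to 4, a difference of -0.99 (SE 0.75; limma adjusted p = 0.795) that was -0.16 without deleted replicate 2. Acan, the cartilage proteoglycan, was at 0.274, 0.386 and 0.318 FPKM in deleted replicates 1 to 3, against 0.919, 0.927, 1.44 and 1.15 in wildtype replicates 1 to 4. Every deleted library was below every wildtype library, but the mean over all 7 was under 1 FPKM, so Acan was tested only with no filter, at a difference of -0.66 (SE 0.10; limma adjusted p = 0.731).

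**Figure D4:**
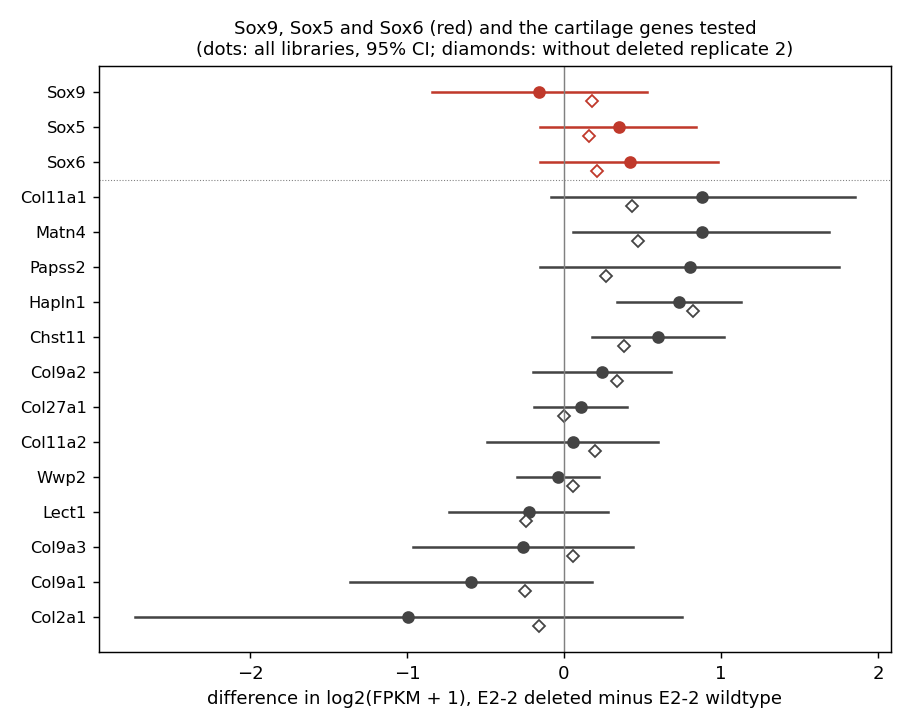
Difference in log2(FPKM + 1), E2-2 deleted minus E2-2 wildtype, of Sox9, Sox5 and Sox6 (red, above the dotted line) and of the 13 cartilage genes tested (grey, ordered by value), with 95% confidence intervals from limma; diamonds give the value without deleted replicate 2. The cartilage genes run from 0.88 (Col11a1 and Matn4) to -0.99 (Col2a1), and no gene shown passes the adjusted threshold.

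Genes regulated by SoxC and SoxD proteins in other tissues likewise had differences in both directions. Of 4 SoxC target genes, all tested, 1 had a positive and 3 a negative difference, with a median of -0.22 and 0 past the threshold; the median was 0.21 without deleted replicate 2 and -0.44 without deleted replicate 3. Tead2, a Hippo pathway factor activated by SoxC proteins in the mouse embryo, was at 114, 59.5 and 90.5 FPKM in deleted replicates 1 to 3, against 94.0 to 123 in wildtype libraries, low in the same library as Sox11. The histone methyltransferase gene Ezh2 was at 44.4, 22.7 and 44.5 FPKM in deleted replicates 1 to 3, against 42.9 to 53.8 in wildtype libraries. The neuronal tubulin gene Tubb3, at 11.8 to 66.8 FPKM in deleted against 6.95 to 52.9 FPKM in wildtype libraries, and the neuronal gene Dcx, at 1.33 to 7.98 in deleted against 1.84 to 7.10 in wildtype libraries, varied more widely, and Dcx too was lowest in deleted replicate 2. Of 7 genes that Sox6 represses in mouse muscle or red cells, 4 were tested, with 2 positive and 2 negative differences, a median of 0.15 (0.50 without deleted replicate 2) and 0 past the threshold. Hbb-y, an embryonic globin, was at 45.9, 2.54 and 102 FPKM in deleted replicates 1 to 3, against 13.3 to 110 in wildtype libraries. It was thus lowest where Sox6 was highest, in a library that was lowest for 44.4% of all genes tested. In wildtype replicate 3, where Sox6 was lowest at 0.908 FPKM, Hbb-y was at 13.3 FPKM, its lowest wildtype value. The slow troponin gene Tnni1 was at 8.23, 7.65 and 12.0 FPKM in deleted replicates 1 to 3, against 2.13 to 7.70 in wildtype libraries. Tnnt1 was at 3.19, 3.12 and 3.65 FPKM in deleted replicates 1 to 3, against 1.61 to 3.08 in wildtype libraries. The groups thus did not overlap for Tnnt1, as for 2.84% of all genes tested in that direction. The differences were 0.92 (SE 0.33) for Tnni1 and 0.36 (SE 0.18) for Tnnt1, each with a limma adjusted p of 0.795.

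Other members of the Sox family were compared to show where these 8 differ. Of 12 further Sox genes, 4 reached a mean of 1 FPKM, with 2 positive and 2 negative differences, a median of -0.18 and 0 past the threshold. With no filter that median was 0.01, and leaving out 1 library it ran from -0.44 (wildtype replicate 3) to -0.02 (wildtype replicate 2). Sry was listed at 0 in all 7 libraries, and Sox1, Sox2, Sox3, Sox14, Sox15, Sox21 and Sox30 were at or below 0.565 FPKM in every library. The SoxF genes of endothelium, Sox7, Sox17 and Sox18, were at 17.5 to 22.7, 2.41 to 3.94 and 12.1 to 18.5 FPKM in deleted libraries, against 12.0 to 30.9, 2.06 to 7.97 and 17.4 to 32.4 in wildtype libraries. Their endothelial list summed to 283 to 413 FPKM in deleted and 202 to 468 FPKM in wildtype libraries, and its 8 members had a median difference of 0.06, 6 positive and 2 negative, with 0 past the threshold; without wildtype replicate 3 the median was -0.19 and without wildtype replicate 2 it was 0.25. Sox18 had the smallest p of the Sox genes tested, with a difference of -0.66 (SE 0.23; limma adjusted p = 0.795) that was -1.14 within BI and -0.04 within BM.

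Sox10, the SoxE gene of neural crest and glia, was spread differently from Sox8 and Sox9. It was at 0.736, 1.60 and 3.96 FPKM in deleted replicates 1 to 3, against 2.36, 1.24, 0.182 and 0.245 in wildtype replicates 1 to 4, with a difference of 0.63 (SE 0.48; limma adjusted p = 0.795). The neuron list (15 genes) was highest in the same 2 libraries as Sox10, deleted replicate 3 at 434 FPKM and wildtype replicate 1 at 340 FPKM, and lay at 84.0 and 179 in the other deleted and 59.6 to 161 in the other wildtype libraries. Its 14 tested members had a median difference of 0.36, 10 positive and 4 negative, with 0 past the threshold. The median was -0.26 without deleted replicate 3, 0.99 without deleted replicate 1 and 0.03 without wildtype replicate 4. The glia and neural crest list, of which Sox10 is itself a member, was likewise highest in deleted replicate 3, at 52.4 FPKM, and wildtype replicate 1, at 43.9 FPKM. Fabp7 alone made 27.7 and 22.3 FPKM of those sums. Sox11 and Sox4, which are also expressed in maturing neurons, did not have their highest values in those 2 libraries. Sox11 was at 20.1 and 22.4 FPKM and Sox4 at 51.8 and 58.7 FPKM there. The part of neurons in the levels of Sox11 and Sox4 was not tested.

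The genes whose profile over the 7 libraries was most like that of Sox11, Sox6 and Sox9, the gene of largest SD in log2(FPKM + 1) in each subgroup, were found among 10437 genes with a mean of at least 5 FPKM. The measure was the root mean square distance between log2(FPKM + 1) values, each gene centred on its own mean. Nearest to Sox11 were Fam60a, Pecr and Pold1, at distances of 0.06, 0.07 and 0.07. Nearest to Sox6 were Vps13b, Tcp11l2 and Nipal3, at 0.04, 0.04 and 0.07, and nearest to Sox9 were Hoxb3, Alg8 and Hoxb5, at 0.08, 0.11 and 0.11. The added 1 FPKM shrinks the changes of Sox6 more than those of its 3 neighbours. Their highest FPKM was 2.40, 2.37 and 3.02 times their lowest, against 3.89 times for Sox6. Among the 8 genes themselves, Sox12 was at 0.13 and Sox9 at 0.16 from Sox11, Sox5 at 0.18 from Sox6, and Sox6 at 0.68 from Sox11. Pold1 encodes the catalytic subunit of a replicative DNA polymerase, and Hoxb3 and Hoxb5 are patterning genes. Being chosen by profile, these genes share the extremes of Sox11, Sox6 and Sox9 in deleted replicate 2.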

How the data were processed

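The authors deposited 1 gene table per library with FPKM and the bounds of its interval, per the file headers. The submitters' processing notes list, with no roles, Cufflinks 2.0.2, TopHat2 2.0.4 and CASAVA 1.8.2. Poly-A RNA and an Illumina TruSeq RNA kit were used, per the labels' protocols. The genome build is not given in the sources used here, so deposited loci carry no build name.

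Each table had 23699 entries. Entries of one symbol were summed; genes with a status other than OK in any library, small RNAs and loci under 200 bases were left out. The table of deleted replicate 2 had dates in place of 25 symbols, which were read from another table, since loci were identical entry by entry. The square of 2 times the FPKM over its distance to the upper bound gave inferred fragments; 79.5% to 80.4% of those under 300, for genes with a single start, came within 0.05 of a whole number, where chance would give 10%. These are inferred, so no count test was run.

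Genes with a mean of at least 1 FPKM (13465) were compared as log2(FPKM + 1), E2-2 deleted minus E2-2 wildtype, with limma 3.58.1 in R 4.3.3 (a trend of variance on mean, 2-sided). The p was adjusted after Benjamini and Hochberg over every gene tested, with a threshold of 0.05. A trial on simulated data had independent normal errors and changes larger than any Sox difference here. It says nothing about differences of the size seen for the Sox genes. A difference understates the change of genes near 1 FPKM. A 2-sided exact permutation test for single genes used all 35 splits of 7 libraries into 3 and 4, and its smallest p is 0.0286. Alternatives were other pseudocounts, filters, scalings and weights, the name prefix as a term, no trend, and leaving out each library. Replicates were numbered in order of deposit.

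The members and lists were chosen with earlier results of these data known, so the lists are described by counts and medians, without a test. Named genes were the 8 Sox genes, the tested other Sox genes, up to 4 genes of smallest p per list, kidney identity genes, Tcf4, Ctnnb1 and the nearest profiles; others were named after their values were seen. Kidney, gonad and other lineage lists served as markers.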

Additional observations from a re-analysis of the deposited data

Results flagged for a closer look

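In the 4 wildtype libraries, 3 of 92 quantities checked had 1 library far from the others, where chance gives about 1 in 20. The gap of that library to the nearest other, as a share of the range of log2(FPKM + 1), was 0.852 for Pdgfra, 0.855 for Mbp and 0.891 for Hoxb5. Pdgfra, a growth factor receptor of stroma, was at 42.7 FPKM in wildtype replicate 2 and 49.3 to 50.6 in the other wildtype libraries. Mbp, a myelin gene, was at 1.60 FPKM in wildtype replicate 3 and 3.50 to 3.93 in the others, and Hoxb5, a gene near Sox9 in profile, at 10.7 FPKM in the same library, the highest of the others being 15.6. None of the 8 Sox genes was among them. Groups of 3, such as the deleted libraries, were not checked this way.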

How the results depend on the processing

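No Sox gene passed the adjusted threshold under any alternative; the smallest adjusted p was 0.43, for Sox4. The signs of Sox4, Sox12, Sox5 and Sox6 held under every alternative run, scalings included. Leaving out 1 library at a time, the difference ranged from -0.58 to 0.01 for Sox11, -0.28 to 0.08 for Sox13, -0.45 to 0.18 for Sox9 and -0.17 to 0.07 for Sox8; each upper value, and each change of sign, came from the fit without deleted replicate 2. Within BM the differences of Sox13 and Sox8 were 0.22 and 0.04. With a weight per library (0.247 for deleted replicate 2), the differences of Sox11, Sox5 and Sox6 were -0.16, 0.19 and 0.19; with 5 FPKM added, those of Sox5, Sox6 and Sox9 were 0.15, 0.18 and -0.09. Genes past the adjusted threshold numbered 1 with no filter (Ndufs5) and 1 with a weight per library (9130015A21Rik), against 0; both are named after their values were seen, and the cause was not tested. Genes at an unadjusted p under 0.05 numbered 605, and 1000 with no filter, 394 at a mean of at least 5 FPKM, 1142 with weights, and 1473, 250 and 336 without deleted replicate 1, deleted replicate 2 and wildtype replicate 4. Sox8 was tested only with no filter, and Sox5 and Sox6 not at the minimum of 5 FPKM. Of 144 list medians recomputed, 13, in 9 of 16 lists, had the opposite sign, and 9 moved by more than the spread between replicates. No paired analysis was possible because the labels give no replicate numbers and no link between a deleted and a wildtype library. Depth limits Sox8 most, at 15 to 53 inferred fragments.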

Other observations

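Pigment cell genes, part of a lineage in which Sox5, Sox9 and Sox10 act, had positive differences in all 8 members tested, with a median difference of 1.57, against -0.05 over all genes. By limma 0 of them passed the adjusted threshold. An unadjusted p under 0.05 was found for 7, all higher in deleted libraries, against 3.29% of all genes tested. Groups did not overlap for 6 (Pmel, Tyr, Dct, Mlana, Slc24a5 and Trpm1), against 2.84% of all genes tested in that direction. Trpm1, a channel of melanocytes, was at 9.64, 31.2 and 15.6 FPKM in deleted replicates 1 to 3, against 3.84, 2.34, 1.21 and 0.988 in wildtype replicates 1 to 4. Tyr, the enzyme that starts melanin synthesis, was at 1.19 to 3.65 FPKM in deleted and 0.0245 to 0.661 in wildtype libraries. The list summed to 46.4 to 129 FPKM in deleted and 10.3 to 35.6 in wildtype libraries.

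Of 9 genes of Sertoli cells and gonad, where Sox8 and Sox9 also act, 3 were tested, 2 with a positive and 1 with a negative difference. Their median was 0.91, the value of Vnn1, and 0 passed the threshold. The median was 0.19 with no filter on low values, 0.45 without deleted replicate 2 and 1.23 without deleted replicate 1. The testis genes Cst9 and Dmrt1 were listed at 0 in all 7 libraries. Ptgds, a prostaglandin D synthase that Sox9 activates in the mouse testis, was at 8.63, 20.2 and 17.2 FPKM in deleted replicates 1 to 3, against 5.69, 4.42, 1.92 and 3.24 in wildtype replicates 1 to 4, and the pantetheinase gene Vnn1 was at 0.896 to 4.54 FPKM in deleted and 0.358 to 0.775 FPKM in wildtype libraries. Their differences were 1.75 and 0.91, or 1.52 and 0.45 without deleted replicate 2; that of Fgf9, a growth factor, was -0.28. Median differences of the other lists were -0.37 for early nephron genes (9 tested; -0.08 without deleted replicate 2 and -0.60 without deleted replicate 1), -0.07 for renal stroma (10), 0.26 for glia and neural crest (5; 0.04 without wildtype replicate 3 and 0.06 without deleted replicate 3), 0.19 for macrophages (10; -0.06 without deleted replicate 3) and -0.15 for skeletal muscle (4; 0.07 without deleted replicate 2), with 0 members past the threshold in each. Positive and negative differences numbered, in that order of lists, 3 and 6, 3 and 7, 5 and 0, 9 and 1, and 1 and 3. Over all genes tested, 39.3% were positive and 60.7% negative. Of the early nephron genes, Wnt4, a signal for epithelial conversion, was at 41.1, 100 and 39.0 FPKM in deleted replicates 1 to 3, against 28.7 to 36.8 in wildtype libraries, and Fgf8, a survival factor, at 2.69, 0.271 and 2.26 FPKM in deleted replicates 1 to 3, against 2.94 to 5.02 in wildtype libraries.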
